A study of Mus musculus with 14 samples.

Results

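The genes described here act in 2 DNA repair pathways: Msh3, Msh6 and Pms2 in mismatch repair, and Ung, Ogg1, Mutyh, Neil3 and Apex1 in base excision repair. They were chosen by symbol, from a list of repair genes. All 8 were found, each at 1 locus, among the 24345 gene symbols of the RNA-seq tables, and all 8 again among the 24394 symbols of the RNA immunoprecipitation (RIP) tables.

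Mismatch repair removes bases that were wrongly paired or slipped during DNA replication. The protein pair that holds Msh6 recognises single mispaired bases and the pair that holds Msh3 recognises larger loops, after which a complex with the Pms2 endonuclease nicks the new strand, so that the error can be cut out and the gap refilled. In base excision repair a DNA glycosylase first cuts a damaged base off its sugar, and Apex1, the main endonuclease for such baseless sites, then opens the strand for polymerases and ligases. Stem cells divide fast, and both pathways guard the genome that they hand on to every later cell type.

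The libraries came from mouse cells, 2 per group, and the study compared 7 groups. Dppa5a_KD were embryonic stem cells with the genotype Dppa5a knockdown, and KD_control were the wild type stem cells set against them, both untreated; Dppa5a is found in pluripotent cells and carries a KH domain, a fold that binds RNA. The mESC group held wild type, untreated embryonic stem cells and the MEF group wild type, untreated primary embryonic fibroblasts. HU_Flag_RIP, Flag_RIP and IgG_RIP were RNA pulled down from stem cells that overexpress 3Flag-Dppa5a, with a Flag antibody after the treatment HU, with a Flag antibody in untreated cells, and with IgG in untreated cells. What HU stands for, how Dppa5a was knocked down and whether the replicates were separate cultures are not given in the labels, so p-values here measure only the spread between these libraries, which may be technical. The stem cells were a home made line that was kept on feeder fibroblasts and passaged without them before harvest.

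Dppa5a itself had 101 and 358 FPKM (fragments per length of transcript and per depth of the library) in Dppa5a_KD, against 5126 and 5417 FPKM in KD_control, which is -4.78 as a log2 fold change with an SE of 0.63 (limma adjusted p = 0.0088). In mESC, Dppa5a had 1485 and 1818 FPKM, below KD_control. The 10 pluripotency markers summed to between 2115 and 3382 FPKM in the 6 stem cell libraries and to 23.4 and 17.7 FPKM in MEF, where Pou5f1 was listed at 0. Within these sums single markers differed between the 2 wild type stem cell groups, as Zfp42 did, with 406 and 502 FPKM in mESC and 34.3 and 36.6 FPKM in KD_control. The FPKM of all genes summed to between 447657 and 585678 per library, and mESC replicate 1 and Dppa5a_KD replicate 1 had the 2 lowest sums. The RIP libraries held 3473508 and 3705047 counts in IgG_RIP and between 7380542 and 13036568 in the other 4, of which the ribosomal RNA gene Rn45s took 39.3% to 73.2%. Every pair of replicates differed by more than sampling noise.

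Msh6 stood far above the other 7 genes in all 6 stem cell libraries. It lies at chr17:87975050-87990892 (mm10) and had 254 and 194 FPKM in Dppa5a_KD and 198 and 199.8 FPKM in KD_control. It had 174 and 187 FPKM in mESC, against 13.5 and 13.9 FPKM in MEF, where Apex1 was the highest of the 8 genes. FPKM is a level per length, so these levels can be set side by side between genes. The promoter of Msh6 is shown because this gene had the widest difference between cell types; it runs from 250 bases before to 50 after the gene's start in RefSeq (GRCm38.p6, chr17:87974800-87975099, plus strand), 5′ to 3′, with E2F words and GC boxes in capitals.
Msh6: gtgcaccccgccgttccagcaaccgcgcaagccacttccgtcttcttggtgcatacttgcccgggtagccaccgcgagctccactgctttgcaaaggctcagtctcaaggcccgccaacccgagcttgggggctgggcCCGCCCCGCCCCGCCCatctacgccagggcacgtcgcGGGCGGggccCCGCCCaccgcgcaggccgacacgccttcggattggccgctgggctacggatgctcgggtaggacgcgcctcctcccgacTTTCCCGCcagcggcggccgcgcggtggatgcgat

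The words searched were TTTGGCGC, TTTCGCGC, TTTGCCGC and TTTCCCGC for E2F, which is known for driving genes of DNA synthesis, GGGCGG for the GC box, CACGTG for the E-box and CCAAT for the CCAAT box, on both strands and with overlaps counted. Msh6 held 1 E2F word and 5 GC boxes. Of all 32851 mouse promoters of this length, 2.26% held an E2F word, 35.7% a GC box, 7.15% an E-box and 37.4% a CCAAT box. A match describes letters only, and does not show that a factor binds there.

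Msh3, the partner that takes the place of Msh6 at larger loops, lies at chr13:92211881-92355003. It had 8.14 and 6.82 FPKM in Dppa5a_KD and 4.32 and 3.96 FPKM in KD_control. Its levels were 13.8 and 9.91 FPKM in mESC and 2.76 and 3.59 FPKM in MEF. None of the 4 groups overlapped with its neighbour in the order mESC, Dppa5a_KD, KD_control, MEF. The 2 wild type, untreated stem cell groups, at means of 11.9 FPKM in mESC and 4.14 FPKM in KD_control, lay further apart than Dppa5a_KD and KD_control. mESC and KD_control were not tested against each other. A difference between sets of libraries cannot be told apart from one between the cells. Apex1, at chr14:50924949-50927188, had 72.7 and 87.0 FPKM in Dppa5a_KD, 41.6 and 41.9 FPKM in KD_control, 34.1 and 56.6 FPKM in mESC and 24.5 and 23.8 FPKM in MEF. Its Dppa5a_KD libraries were the highest of all 8 and its MEF libraries the lowest. Neil3, a glycosylase for oxidised bases that also acts on single-stranded DNA, lies at chr8:53586867-53639065 and showed another order. It had 2.32 and 2.98 FPKM in Dppa5a_KD, 7.29 and 6.13 FPKM in KD_control, 3.15 and 4.69 FPKM in mESC and 3.28 and 3.77 FPKM in MEF. Neil3 was the only 1 of the 8 genes with its lowest group in Dppa5a_KD and not in MEF, and its mESC and MEF libraries overlapped.

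The promoters of these 3 genes are shown because they were the members called in the knockdown. In Msh3 (chr13:92354954-92355253, minus strand) and Neil3 (chr8:53639016-53639315, minus strand) capitals mark E2F words and GC boxes, and in Apex1 (chr14:50924699-50924998, plus strand) they mark E-boxes and CCAAT boxes.
Msh3: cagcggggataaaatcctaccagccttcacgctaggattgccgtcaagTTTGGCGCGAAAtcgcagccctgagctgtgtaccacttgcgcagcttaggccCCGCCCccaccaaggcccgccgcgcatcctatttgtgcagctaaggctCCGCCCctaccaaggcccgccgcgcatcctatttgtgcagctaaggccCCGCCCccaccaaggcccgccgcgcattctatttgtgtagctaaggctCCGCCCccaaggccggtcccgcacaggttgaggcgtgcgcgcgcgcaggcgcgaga
Apex1: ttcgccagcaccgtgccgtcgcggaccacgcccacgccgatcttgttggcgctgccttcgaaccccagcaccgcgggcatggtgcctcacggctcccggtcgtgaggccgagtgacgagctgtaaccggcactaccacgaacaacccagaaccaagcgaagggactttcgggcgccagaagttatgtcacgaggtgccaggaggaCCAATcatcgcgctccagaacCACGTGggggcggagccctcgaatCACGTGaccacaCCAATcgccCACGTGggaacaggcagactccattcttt
Neil3: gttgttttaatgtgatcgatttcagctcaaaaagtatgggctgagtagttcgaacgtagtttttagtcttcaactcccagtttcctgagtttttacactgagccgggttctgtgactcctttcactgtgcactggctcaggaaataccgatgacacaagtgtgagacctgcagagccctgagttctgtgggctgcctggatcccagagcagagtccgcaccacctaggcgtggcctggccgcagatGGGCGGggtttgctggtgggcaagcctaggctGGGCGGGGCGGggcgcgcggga

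Msh3 held 2 E2F words that overlap each other and 4 GC boxes. Apex1 held 3 E-boxes and 2 CCAAT boxes, and Neil3 held 3 GC boxes and no E2F word. The promoters of Pms2, Ung, Ogg1 and Mutyh held neither an E2F word nor an E-box.

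The other 4 genes spanned a range of levels. Pms2, the mismatch repair endonuclease, lies at chr5:143910001-143931756 and had 9.50 and 8.57 FPKM in Dppa5a_KD and 8.47 and 8.33 FPKM in KD_control. It had 11.9 and 10.1 FPKM in mESC, against 4.19 and 4.65 FPKM in MEF. The 6 stem cell libraries of Pms2 thus lay between 8.33 and 11.9 FPKM, all above both MEF libraries. Ung, which cuts uracil out of DNA, lies at chr5:114130435-114139321 and had 47.9 and 56.7 FPKM in Dppa5a_KD and 44.2 and 42.7 FPKM in KD_control. Its mESC libraries stood wide apart, at 28.3 and 60.1 FPKM, and its MEF libraries were at 6.96 and 6.12 FPKM. The 3 stem cell groups of Ung could not be ordered, since mESC overlapped with both others. Ogg1 (chr6:113326976-113334186), which cuts out oxidised guanine, had 10.0 and 16.4 FPKM in Dppa5a_KD, 17.6 and 19.98 FPKM in KD_control, 12.9 and 19.5 FPKM in mESC and 5.37 and 4.98 FPKM in MEF. Mutyh (chr4:116807734-116819431), which removes adenine paired with oxidised guanine, had 4.15 and 5.23 FPKM in Dppa5a_KD, 6.27 and 6.99 FPKM in KD_control, 4.85 and 7.30 FPKM in mESC and 2.43 and 1.78 FPKM in MEF. For both of these partners in the repair of oxidised guanine, the mESC libraries overlapped with those of both other stem cell groups.

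**Figure D1:**
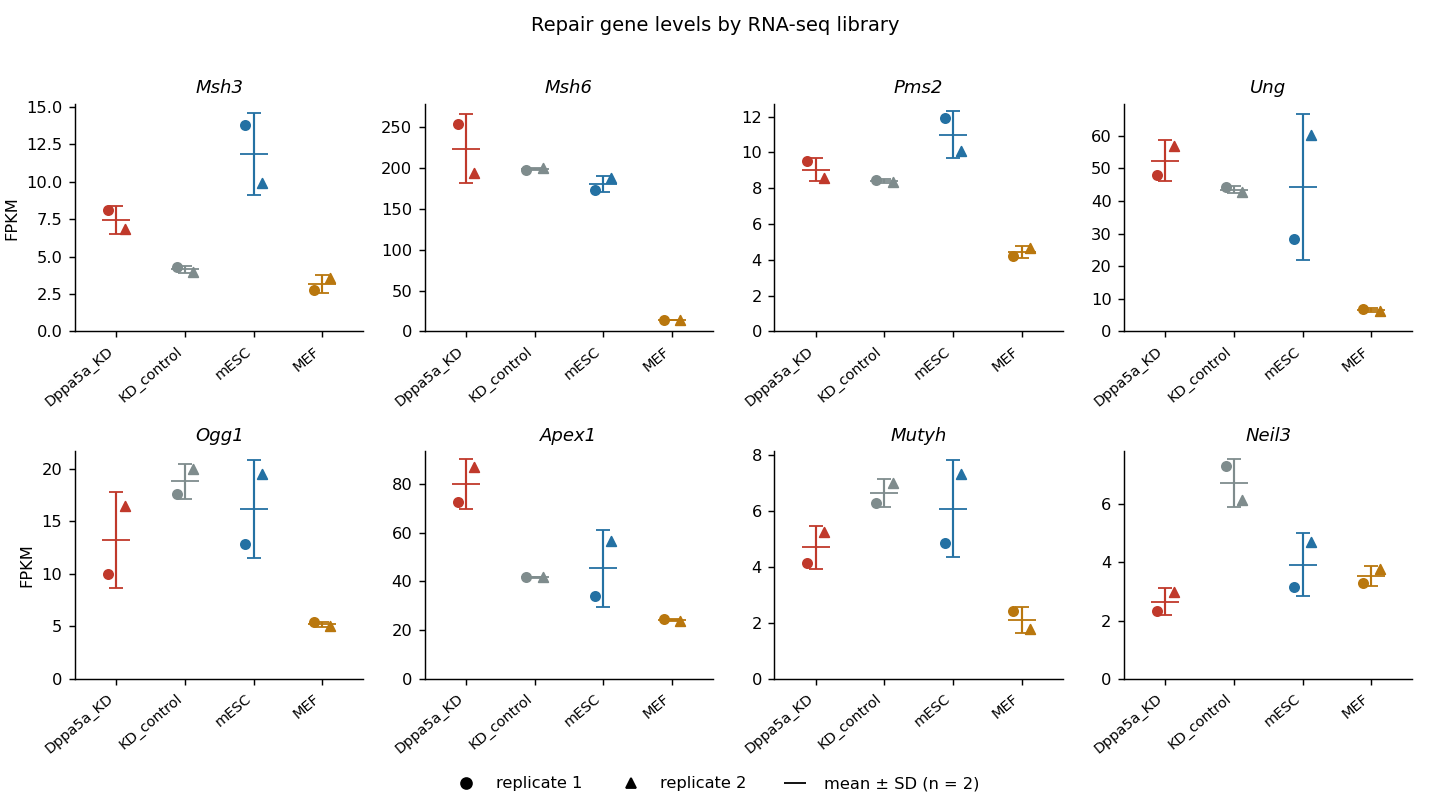
FPKM of each gene (y axis, a scale of its own per gene, from 0) in the 4 RNA-seq groups (x axis); circles and triangles are replicates 1 and 2, and horizontal lines with bars are the mean ± SD (n = 2). Msh3 and Apex1 sit higher and Neil3 lower in Dppa5a_KD than in KD_control, and Msh6 and Ung are far lower in MEF than in the stem cells.

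In the knockdown, Msh3 and Apex1 rose and Neil3 fell, and the other 5 genes did not pass the test. Of all 12345 genes tested 37.4% were called, 13.6% higher and 23.8% lower, so that 3 called of 8 is near the background. Apex1 averaged 79.8 ± 10.1 FPKM in Dppa5a_KD and 41.7 ± 0.182 FPKM in KD_control (SD, n = 2 each), a log2 fold change of 0.91 (SE 0.13, limma adjusted p = 0.0099). Msh3 averaged 7.48 ± 0.931 FPKM in Dppa5a_KD and 4.14 ± 0.255 FPKM in KD_control (log2 fold change 0.72, SE 0.13, limma adjusted p = 0.016). Neil3 averaged 2.65 ± 0.462 FPKM in Dppa5a_KD and 6.71 ± 0.816 FPKM in KD_control (log2 fold change -1.08, SE 0.15, limma adjusted p = 0.0095). Fold changes are on the log2(FPKM + 1) scale, which understates the change of genes as low as Neil3 and Msh3.

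The median log2 fold change was 0.12 over the 8 members and -0.11 over all genes tested, and scaling FPKM to a common sum moved the latter to 0.02. In 7 of the 8 genes the Dppa5a_KD and KD_control libraries did not overlap, where 75.6% of all genes tested did not; Msh6 was the exception. The call of Msh3 was lost with FPKM scaled to a common sum (limma adjusted p = 0.052) and without either KD_control library (0.059 without replicate 1 and 0.12 without replicate 2), while Apex1 and Neil3 were called in each of 11 alternatives. Without Dppa5a_KD replicate 1, 5 members were called, and without Dppa5a_KD replicate 2, 7 were.

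Among the members not called, Mutyh (limma log2 fold change -0.43, SE 0.14, adjusted p = 0.071) and Ogg1 (-0.51, SE 0.24, adjusted p = 0.15) had lower means in Dppa5a_KD. Ung (0.26, SE 0.13, adjusted p = 0.17), Msh6 (0.16, SE 0.18, adjusted p = 0.52) and Pms2 (0.09, SE 0.11, adjusted p = 0.52) had higher ones. The 2 mismatch repair genes among these 5 had the fold changes nearest to 0. A p that misses the threshold does not show that a gene kept its level.

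**Figure D2:**
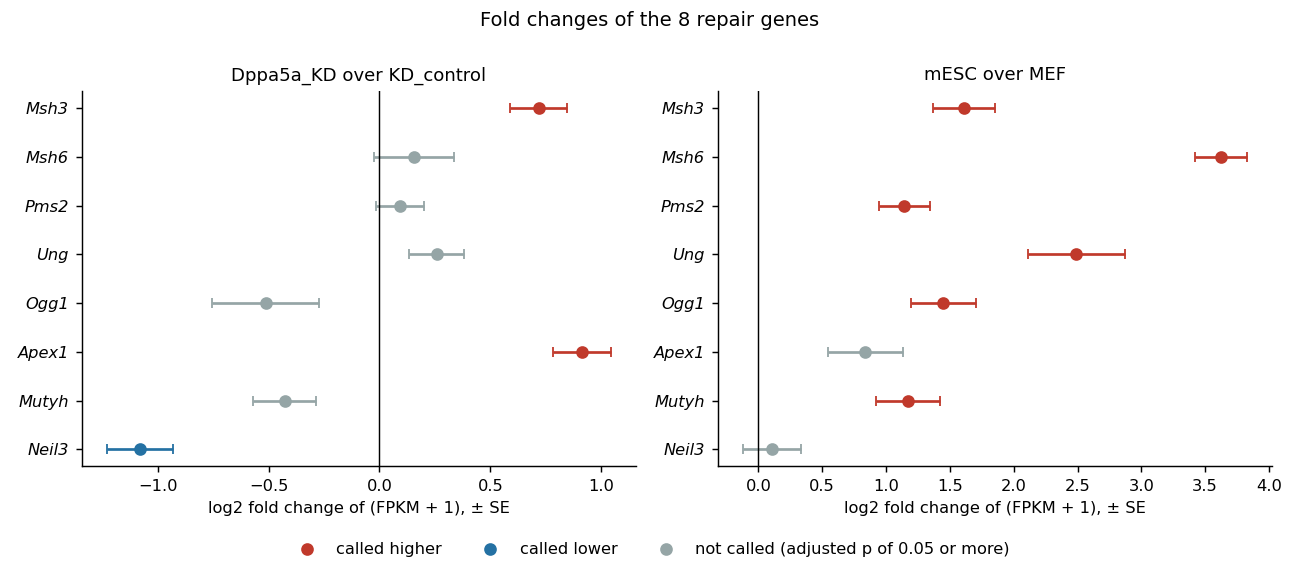
Log2 fold change of (FPKM + 1) (x axis, with SE) of each gene (y axis) for Dppa5a_KD over KD_control on the left and mESC over MEF on the right; red points are called higher, blue points lower and grey points not called in the limma test. Neil3, at -1.08, is the only gene called lower, in the knockdown, and Msh6, at 3.63, has the highest value, in mESC over MEF.

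The base excision genes were also counted by step in the knockdown, a grouping made after the values were seen, and the difference between the steps was not tested. Of 11 DNA glycosylases, the enzymes of the opening step, 5 fell, 0 rose and 6 were not called, beside 23.8% of all genes tested called lower. The 5 that fell were Neil3, Nthl1, Neil2, Mbd4 and Smug1. Nthl1, a glycosylase for oxidised pyrimidines, had 5.22 and 7.44 FPKM in Dppa5a_KD, against 15.4 and 15.8 FPKM in KD_control (log2 fold change -1.19, SE 0.17, limma adjusted p = 0.010). Neil2, which acts on similar lesions, had 2.43 and 3.35 FPKM in Dppa5a_KD, against 6.86 and 6.99 FPKM in KD_control (-1.04, SE 0.15, adjusted p = 0.010). Mbd4, which removes thymine or uracil mispaired with guanine, had 7.83 and 8.28 FPKM in Dppa5a_KD, against 16.8 and 17.0 FPKM in KD_control (-0.98, SE 0.10, adjusted p = 0.0063). In these 3 genes, as in Neil3, both Dppa5a_KD libraries lay below both KD_control libraries. Smug1, a uracil glycosylase, had 6.66 and 6.17 FPKM in Dppa5a_KD, against 9.44 and 8.89 FPKM in KD_control (-0.46, SE 0.11, adjusted p = 0.030). The median log2 fold change of the 11 glycosylases was -0.47, beside -0.11 over all genes tested.

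Of 13 genes for the steps after the glycosylase, 5 rose, 0 fell and 8 were not called, beside 13.6% of all genes tested called higher and 23.8% lower. The 5 that rose were Apex1, Apex2, Hmgb1, Fen1 and Lig3. Apex2, a second endonuclease of the Apex family, had 8.64 and 11.6 FPKM in Dppa5a_KD, against 5.18 and 4.75 FPKM in KD_control (log2 fold change 0.89, SE 0.16, limma adjusted p = 0.017). Hmgb1, a chromatin protein that takes part in long-patch repair, had 183 and 176 FPKM in Dppa5a_KD, against 99.5 and 98.7 FPKM in KD_control (0.85, SE 0.12, adjusted p = 0.0095). Fen1, which trims the displaced flap, had 69.6 and 77.4 FPKM in Dppa5a_KD, against 42.7 and 44.7 FPKM in KD_control (0.74, SE 0.11, adjusted p = 0.012). Lig3, the ligase that works with Xrcc1, had 16.3 and 13.6 FPKM in Dppa5a_KD, against 9.66 and 9.12 FPKM in KD_control (0.62, SE 0.13, adjusted p = 0.022). These 5 rose in both Dppa5a_KD libraries, while the median over the 13 genes was -0.00, and Xrcc1 (-0.34, adjusted p = 0.094) and Polb, the gap-filling polymerase (-0.15, adjusted p = 0.31), were not called. The call of Smug1 was lost in 5 of 11 alternatives, that of Lig3 in 3, that of Fen1 in 3 and that of Hmgb1 in 2, and all 4 lost it without either KD_control library. Smug1 and Lig3 were named after their values were seen, to complete these counts.

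The counts by step varied with the processing. With FPKM scaled to a common sum 4 glycosylases were called lower and 4 later-step genes higher, and with median-ratio scaling 4 and 5. Without KD_control replicate 1 or replicate 2, 4 glycosylases were called lower and 2 later-step genes higher, Apex1 and Apex2 being called in each of 11 alternatives. Without Dppa5a_KD replicate 2, where 9436 of all genes were called, 8 glycosylases were called lower and 2 higher, and 6 later-step genes were called in each direction. Without Dppa5a_KD replicate 1, with 8593 genes called, 7 glycosylases were called lower and 2 higher, and 5 later-step genes higher and 2 lower.

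**Figure D3:**
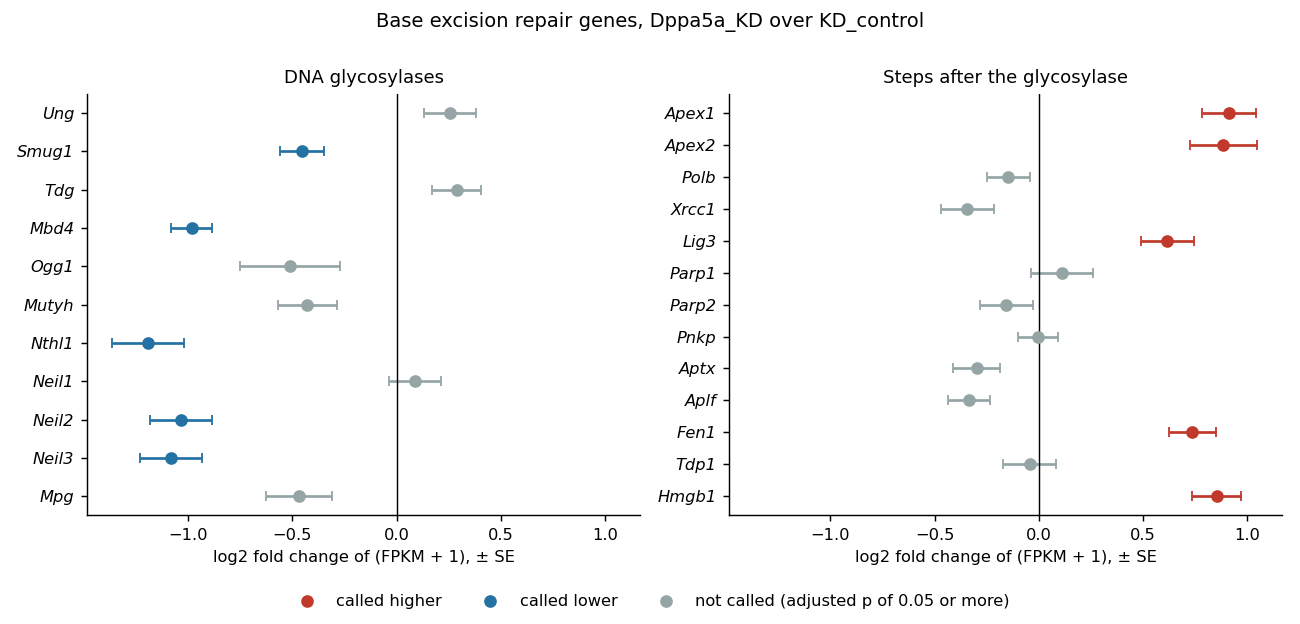
Log2 fold change of (FPKM + 1) in Dppa5a_KD over KD_control (x axis, with SE) for 11 DNA glycosylases on the left and 13 genes of the later steps of base excision repair on the right (y axis, 1 gene per line); red is called higher, blue called lower and grey not called by limma. The called genes on the left all lie below 0, down to -1.19 for Nthl1, and those on the right all lie above 0, up to 0.91 for Apex1.

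Of 7 mismatch recognition genes 3 rose, among them Msh3 and Mlh3, a partner in some MutL complexes, and 0 fell. Mlh3 had 10.7 and 7.97 FPKM in Dppa5a_KD, against 5.52 and 5.85 FPKM in KD_control (limma log2 fold change 0.62, SE 0.16, adjusted p = 0.039), and its call was lost in 5 of 11 alternatives. With FPKM scaled to a common sum, and without either KD_control library, 0 of the 7 were called. Over all genes tested 13.6% were called higher and 23.8% lower. Of 15 genes for excision and resynthesis 2 rose and 1 fell, which is not above these shares. The 2 that rose were Exo1, the exonuclease of mismatch repair (0.53, SE 0.11, adjusted p = 0.022), and Rfc5, a clamp loader subunit (0.62, SE 0.12, adjusted p = 0.018). Their calls were lost without either KD_control library (adjusted p = 0.30 and 0.19 for Exo1 and 0.33 and 0.33 for Rfc5, without replicates 1 and 2). In the same list 1 gene fell, Pold4, the smallest subunit of DNA polymerase delta, with 5.15 and 9.70 FPKM in Dppa5a_KD, against 19.6 and 21.5 FPKM in KD_control (-1.41, SE 0.28, adjusted p = 0.020). Among genes that clean the nucleotide pool, Nudt18 fell (-0.55, adjusted p = 0.026), a call lost in 5 of 10 alternatives, among them those without either KD_control library.

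Some markers of other cell types were called in the knockdown too. The 10 fibroblast markers summed to 9.48 and 9.52 FPKM in Dppa5a_KD, against 23.7 and 23.8 FPKM in KD_control. Dcn and Postn were listed at 0 in all 4 libraries, and Col1a1, which averaged 2560 FPKM in MEF, was under 1 FPKM in each. Thy1 and Pdgfrb averaged 7.75 FPKM each in KD_control, and 312 and 76.9 FPKM in MEF. Whether such reads came from feeder cells was not tested. All 4 of the fibroblast markers that could be tested were called lower. The 6 primitive endoderm markers summed to 11.3 and 9.16 FPKM in Dppa5a_KD and 19.8 and 19.0 FPKM in KD_control. Of these Gata6 was called lower, with means of 7.80 FPKM in Dppa5a_KD and 12.7 FPKM in KD_control. Gata4 and Pdgfra were called lower too, but passed the filter on low values only through KD_control, so they could be called in no other direction. Of all genes tested 23.8% were called lower. Other markers went up: Cd68, the 1 macrophage marker that could be tested, was called higher. Of the 10 pluripotency markers, 1 was called higher and 1 lower. The 10 proliferation markers summed to 757 and 749 FPKM in Dppa5a_KD, against 827 and 813 FPKM in KD_control, with 1 of 10 called lower. Their part in the changes of the repair genes was not tested. In bulk RNA, fewer cells of a type and less RNA per cell cannot be told apart.

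In embryonic stem cells, 6 of the 8 genes were higher than in fibroblasts, and Msh6 had the widest difference. Of all 12875 genes tested 56.7% were called, 30.6% higher and 26.1% lower. Msh6 averaged 180.5 ± 9.81 FPKM in mESC and 13.7 ± 0.240 FPKM in MEF (SD, n = 2 each), a log2 fold change of 3.63 (SE 0.20, limma adjusted p = 1.5e-04). Ung followed, with 44.2 ± 22.5 FPKM in mESC and 6.54 ± 0.592 FPKM in MEF (2.49, SE 0.38, limma adjusted p = 0.0036). Msh3 averaged 11.9 ± 2.76 FPKM in mESC and 3.18 ± 0.585 FPKM in MEF (1.61, SE 0.24, limma adjusted p = 0.0035). Of the other called genes, Ogg1 had a limma log2 fold change of 1.45 (SE 0.25, adjusted p = 0.0059), Mutyh of 1.18 (SE 0.25, adjusted p = 0.012) and Pms2 of 1.14 (SE 0.20, adjusted p = 0.0059). All 3 mismatch repair members and 3 of the 4 member glycosylases were thus called, and Neil3 was the glycosylase that was not.

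Apex1 (limma log2 fold change 0.84, SE 0.29, adjusted p = 0.056) and Neil3 (0.10, SE 0.23, adjusted p = 0.72) did not pass the test. Apex1 was called in 4 of 12 alternatives, and the 2 groups of Apex1 did not overlap, at 34.1 and 56.6 FPKM in mESC and 24.5 and 23.8 FPKM in MEF. In 7 of the 8 members the groups did not overlap, beside 79.8% of all genes tested. The median log2 fold change was 1.31 over the 8 members and 0.15 over all genes, the latter moving to 0.02 with median-ratio scaling. Without MEF replicate 1, where 2835 genes were called in place of 7304, and without MEF replicate 2, where 2993 were, Msh6 was the only member called, the lone fibroblast library being assumed to vary like the pair of stem cell libraries.

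Other genes of the 2 pathways were called in mESC over MEF too. All 7 mismatch recognition genes were called higher. Of 15 excision and resynthesis genes 13 were called higher, led by Rfc5 (limma log2 fold change 2.32, SE 0.20, adjusted p = 5.8e-04), Rpa2, a subunit of the protein that coats single-stranded DNA (1.96, SE 0.20, adjusted p = 8.9e-04), and Pold3, a polymerase delta subunit (1.76, SE 0.20, adjusted p = 0.0014). Pold4 was the 1 gene of this list called lower, with 2.00 and 4.77 FPKM in mESC, against 22.8 and 18.9 FPKM in MEF (-2.38, SE 0.35, adjusted p = 0.0032), a call lost without either MEF library. Of 11 glycosylases 6 were called higher and 0 lower, with Mbd4 (1.96, adjusted p = 0.00205) and Neil2 (1.59, adjusted p = 0.0034) beside the members. Of the 13 later-step genes 5 were called higher, led by Parp1, the sensor of strand breaks (2.60, SE 0.29, adjusted p = 0.0013), and 1 lower, Aptx (-0.52, SE 0.17, adjusted p = 0.042), whose call was lost in 6 of 11 alternatives. Of the nucleotide pool genes, those called higher included Nudt1, which destroys oxidised guanine nucleotides (1.62, SE 0.34, adjusted p = 0.011), and Dut, which removes dUTP (1.40, SE 0.25, adjusted p = 0.0061). Without MEF replicate 1 or 2 the number called higher was 0 of the 11 glycosylases, 1 of the 13 later-step genes, and 2 of the 7 recognition genes, and for the 15 excision and resynthesis genes it was 2 without replicate 1 and 3 without replicate 2. Pold4 and Aptx were named in this comparison after their values were seen.

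Growth markers were read beside these values. The 10 proliferation markers summed to 983 and 846 FPKM in mESC, against 451 and 499 FPKM in MEF, with 4 of 10 called higher and 0 lower, beside 30.6% of all genes tested called higher. Mki67, which was not called, had 20.0 and 26.8 FPKM in mESC and 25.9 and 30.0 FPKM in MEF. The fibroblast markers summed to 2.88 and 7.97 FPKM in mESC and 6655 and 5602 FPKM in MEF. The part of these markers in the differences of the repair genes was not tested.

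Some of the gene loci overlap others, and since no source used here tells if the libraries kept strand, reads in the shared stretch cannot be assigned with certainty. In RefSeq the overlap was 868 bases between Ung and Alkbh2, 754 between Ogg1 and Camk1 and 34 between Msh6 and Fbxo11. Camk1 was lower in mESC than in MEF (limma log2 fold change -1.62, SE 0.23, adjusted p = 0.0029), while Ogg1 was higher. Toe1, whose start lies 175 bases from that of Mutyh on the other strand, rose in the knockdown (1.21, SE 0.11, adjusted p = 0.0061), where Mutyh was not called. Osgep starts 56 bases from Apex1 on the other strand, and was not called there (limma log2 fold change -0.25, SE 0.14, adjusted p = 0.22), while Apex1 rose. Aimp2, 162 bases from Pms2 on the other strand, was not called either (0.34, SE 0.14, adjusted p = 0.11).

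Across the 8 RNA-seq libraries the members did not vary as 1 block. The highest Pearson correlations of log2(FPKM + 1) were 0.986 between Ogg1 and Mutyh and 0.970 between Msh6 and Ung, and the lowest was -0.35 between Msh3 and Neil3. These values are descriptions over 8 libraries that fall into separate groups, so that the gap to MEF carries much of them. Among 12399 genes, the 2 nearest to Msh6 were Tgm1 (0.998) and Esrrb (0.998), and those nearest to Pms2 were Fanci (0.9965) and Tet1 (0.995). The nearest were Gm8898 (0.999) for Msh3, Nrtn (0.998) for Ung, Timm8a2 (0.994) for Ogg1, Rbpms (0.991) for Mutyh, Zc3h12a (0.991) for Apex1 and Eid2b (0.979) for Neil3. No nearest gene was itself a member.

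The replicates of 2 groups differed in a shared way. In Dppa5a_KD, replicate 1 over replicate 2 gave FPKM ratios between 0.61 (Ogg1) and 0.84 (Ung) for the 5 base excision genes, and 1.19 for Msh3, 1.31 for Msh6 and 1.11 for Pms2. In mESC the same ratios lay between 0.47 (Ung) and 0.67 (Neil3) for the base excision genes, and were 1.39 for Msh3, 1.19 for Pms2 and 0.93 for Msh6. Replicate 1 had the lower FPKM sum in both groups, with ratios of 0.77 in Dppa5a_KD and 0.80 in mESC. KD_control replicates differed less, with ratios between 0.88 and 1.19 for the 8 genes. The split by pathway describes these 8 genes only. In Dppa5a_KD, Lig3 of base excision repair had 16.3 and 13.6 FPKM in replicates 1 and 2, and Pold4 of mismatch repair 5.15 and 9.70 FPKM.

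RIP asks which RNAs come down with tagged Dppa5a more than with control IgG. HU_Flag_RIP differs from IgG_RIP in both the antibody and the treatment HU, so their parts cannot be told apart in that comparison. None of the 8 genes was called in any of the 3 RIP comparisons, by edgeR's quasi-likelihood test or by DESeq2. Levels are given as CPM, counts scaled to a common library size with TMM factors, and since CPM is not per length it is compared only within a gene. Of 10473 genes tested, 2.32% were called in Flag_RIP over IgG_RIP (1.16% higher and 1.16% lower), 2.86% in HU_Flag_RIP over IgG_RIP (1.44% higher and 1.42% lower) and 0.611% in HU_Flag_RIP over Flag_RIP (0.143% higher and 0.468% lower). At an unadjusted p under 0.05, 1 member passed in Flag_RIP over IgG_RIP (Neil3), 2 in HU_Flag_RIP over IgG_RIP (Neil3 and Ung) and 0 in HU_Flag_RIP over Flag_RIP. Dppa5a's own RNA had 114 and 114 CPM in HU_Flag_RIP, 170 and 160 CPM in Flag_RIP and 232 and 252 CPM in IgG_RIP, which says nothing of the protein that was pulled down.

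Neil3 had the widest ratios, on few reads. It had 12 and 31 counts in HU_Flag_RIP, 27 and 25 counts in Flag_RIP and 2 and 2 counts in IgG_RIP. On the CPM scale this was 1.59 and 5.09 in HU_Flag_RIP, 2.63 and 3.12 in Flag_RIP and 0.398 and 0.339 in IgG_RIP. All 4 Flag libraries lay above both IgG libraries. Summed over replicates, the ratio was 8.63 for HU_Flag_RIP over IgG_RIP (95% interval 3.14 to 33.1) and 7.77 for Flag_RIP over IgG_RIP (95% interval 2.86 to 29.6). These intervals cover counting error only, and over replicates the edgeR adjusted p was 0.10 for HU_Flag_RIP and 0.14 for Flag_RIP (unadjusted 0.0062 and 0.0094).

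Ung had 36.7 and 21.3 CPM in HU_Flag_RIP, 20.3 and 19.7 CPM in Flag_RIP and 13.9 and 14.1 CPM in IgG_RIP. The 3 groups did not overlap, and the log2 fold change of HU_Flag_RIP over IgG_RIP was 1.05 (SE 0.36, edgeR adjusted p = 0.12). Flag_RIP over IgG_RIP gave 0.52 for Ung (SE 0.35, adjusted p = 0.53). Msh6, the gene with the most reads, had 49.7 and 54.8 CPM in HU_Flag_RIP, 65.1 and 43.1 CPM in Flag_RIP and 44.8 and 46.4 CPM in IgG_RIP, and its Flag_RIP libraries lay on both sides of IgG_RIP. Apex1 had 11.03 and 5.09 CPM in HU_Flag_RIP, 12.5 and 4.37 CPM in Flag_RIP and 3.78 and 6.60 CPM in IgG_RIP, so that its replicates differed more than its groups.

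The 4 remaining genes had between 1 and 47 counts per library. Mutyh had 1 and 6 counts in HU_Flag_RIP, 19 and 19 in Flag_RIP and 7 and 13 in IgG_RIP, so that both HU_Flag_RIP libraries lay lowest on the CPM scale too (HU_Flag_RIP over Flag_RIP log2 fold change -1.93, SE 1.11, edgeR adjusted p = 1). Msh3 had 23 and 23 counts in HU_Flag_RIP, 38 and 13 in Flag_RIP and 4 and 43 in IgG_RIP, so that its IgG replicates enclosed all other libraries on the CPM scale. Pms2 had 35 and 31 counts in HU_Flag_RIP, 45 and 47 in Flag_RIP and 20 and 18 in IgG_RIP. Ogg1 had 15 and 19 counts in HU_Flag_RIP, 20 and 15 in Flag_RIP and 11 and 14 in IgG_RIP. Neither passed the test in any comparison. In 4 members the Flag_RIP and IgG_RIP libraries did not overlap, in 5 the HU_Flag_RIP and IgG_RIP libraries and in 3 the HU_Flag_RIP and Flag_RIP libraries, beside 46.6%, 47.4% and 30.6% of all genes tested.

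**Figure D4:**
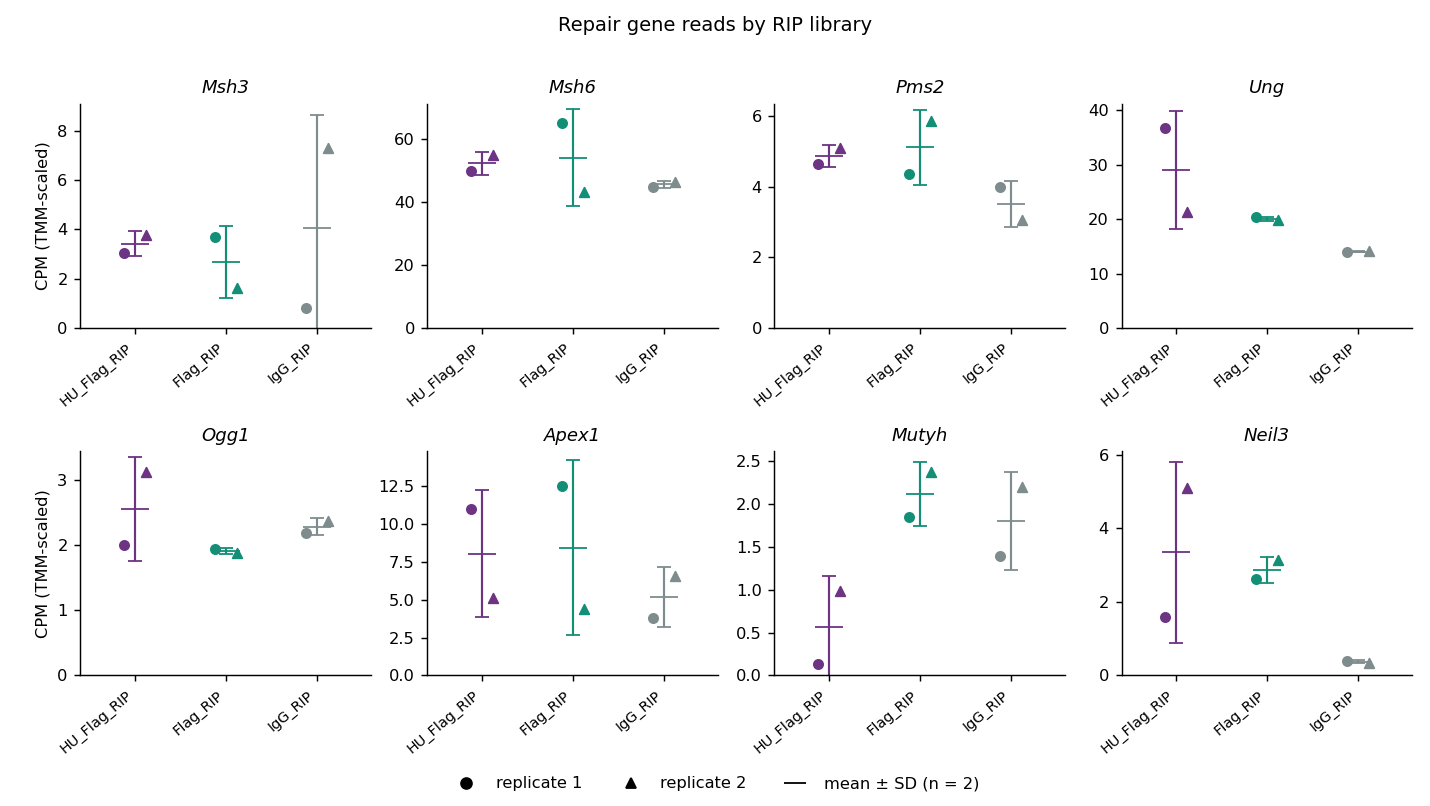
TMM-scaled CPM of each gene (y axis, a scale of its own per gene) in the 3 RIP groups (x axis); circles and triangles are replicates 1 and 2, and lines with bars are the mean ± SD (n = 2), with bars cut off at 0. Neil3 lies above both IgG_RIP libraries in all 4 Flag libraries, and the Msh3 replicates of IgG_RIP lie at 0.796 and 7.28 CPM.

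Of the other genes of the 2 pathways, 1 was called in a RIP comparison, and 8 of the 11 glycosylases had enough reads to be tested. The call was 1 of 14 excision and resynthesis genes tested in Flag_RIP over IgG_RIP. There, 0 of 8 glycosylases, 0 of 13 later-step genes and 0 of 7 recognition genes were called. Since 2.32% of all genes tested were called in that comparison, a single call is near the background. Rpa1, a subunit of the protein that coats single-stranded DNA, was lower in Flag_RIP, with 38.0 and 44.7 CPM, than in IgG_RIP, with 77.1 and 113 CPM (log2 fold change -1.20, SE 0.30, edgeR adjusted p = 0.038), and the call was lost in 4 of 11 alternatives. Of 6 macrophage markers 5 could be tested, and Lyz2 was the 1 called, lower in Flag_RIP than in IgG_RIP and higher in HU_Flag_RIP than in Flag_RIP, with 0 called in HU_Flag_RIP over IgG_RIP. The 6 genes, mostly through Lyz2, summed to 10.5 and 36.3 CPM in HU_Flag_RIP, 4.47 and 5.50 CPM in Flag_RIP and 113 and 47.6 CPM in IgG_RIP. Their part in the RIP values of the repair genes was not tested. The RIP directions of most members also depend on scaling, since library size alone in place of TMM moved the median of all genes to -0.87 in Flag_RIP over IgG_RIP and -0.88 in HU_Flag_RIP over IgG_RIP. On that scale Msh6, Pms2 and Apex1 turned negative in both comparisons, and Ung and Mutyh in Flag_RIP and Ogg1 in HU_Flag_RIP over IgG_RIP turned too, while the log2 fold change of Neil3 stayed above 2 in each alternative of both.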

How the data were processed

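RNA was measured in 14 libraries of 7 groups, as labelled by genotype, treatment and antibody. Per the labels' protocols, RNA was taken with Trizol and libraries were made with a NEBNext Ultra kit, against build mm10. Tools listed, with no role, per the submitters' processing notes are HTSeq 0.6.1, TopHat2 2.0.8, CASAVA 2.19, Cuffdiff 2.1.1 and Cufflinks 2.1.1. Strandedness is not stated there or in the labels. The authors deposited FPKM per gene for the 8 RNA-seq libraries and raw counts per gene for the 6 RIP libraries. Read depth behind the FPKM values is unknown.

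FPKM was summed over loci of a symbol and tested as log2(FPKM + 1) with limma 3.58.1 (trend, the 4 libraries of a comparison, genes that averaged 1 FPKM or more in 1 of the 2 groups). Counts were tested with edgeR 4.0.16 (TMM, quasi-likelihood, its own filter on low counts, 6 libraries in 1 fit), with the SE taken from the F statistic and DESeq2 1.42.0 as an alternative (R 4.3.3). A gene was called at a Benjamini-Hochberg adjusted p under 0.05 over all genes tested. For the RIP tables, 27 symbols that had turned into dates were left out, 0.0206% to 0.0489% of counts, and 1 gene with a failed estimate was left out of the FPKM tables. Scripts were tested on simulated data; the simulation was redrawn once, with the fitted variances, after its earlier form recovered no changed genes for mESC against MEF.

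The members and lists were chosen with earlier results of these data known. Beside the members, up to 3 called genes per list and comparison with the smallest p were eligible to be named, and part of these are named here; some genes of the lists are not reported here. Joining members and lists by repair step, the choice of promoters and motif words, and the genes said so in the text were chosen after values were seen. Promoters came from RefSeq (GRCm38.p6). Same-numbered replicates share only a number.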

Additional observations from a re-analysis of the deposited data

How the results depend on the processing

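Most values for the 8 genes kept their direction and call: 76 of 88 in Dppa5a_KD over KD_control, 79 of 95 in mESC over MEF, and 79 of 88, 80 of 87 and 81 of 88 in Flag_RIP over IgG_RIP, HU_Flag_RIP over IgG_RIP and HU_Flag_RIP over Flag_RIP. With 2 libraries a group, leaving 1 out leaves a lone library that is assumed to vary like the others. The causes of the changes below were not tested.

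In the knockdown, 4618 genes were called, against 3023 at a minimum of 5 FPKM, 2916 with a common sum, 2992 with all 8 libraries in 1 fit and between 2415 and 9436 with 1 library left out. The 3 members called became between 2 and 7 with 1 library left out, and 5 with a replicate block, which added Ogg1 and Mutyh. The log2 fold change of Msh6 ranged between -0.037 and 0.35 with 1 library left out. In mESC over MEF, Neil3 was at -0.0028 with median-ratio scaling and between -0.12 and 0.33 with 1 library left out. Genes called ranged between 2835 and 7056 with 1 library left out, beside 7304, and members called between 1 and 7.

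In Flag_RIP over IgG_RIP, 243 genes were called, against 2278 with library size alone, 433 with no filter, 508 with a replicate block and between 30 and 248 with 1 library left out. Library size alone turned Msh6 to -0.66, Pms2 to -0.34, Ung to -0.38, Apex1 to -0.23 and Mutyh to -0.68. With 1 library left out, Mutyh ranged between -0.042 and 0.59, Msh3 between -1.41 and 1.73, Msh6 between -0.075 and 0.53 and Apex1 between -0.25 and 1.29. In HU_Flag_RIP over IgG_RIP, 300 genes were called, against 2709 with library size alone, 532 with no filter, 617 with a replicate block and between 23 and 252 with 1 library left out. Library size alone turned Msh6 to -0.72, Pms2 to -0.44, Ogg1 to -0.755 and Apex1 to -0.32. With 1 library left out, Msh3 ranged between -1.08 and 2.06, Apex1 between -0.037 and 1.09 and Ogg1 between -0.19 and 0.45. In HU_Flag_RIP over Flag_RIP, 64 genes were called, against 41 with only the 4 libraries. With 1 library left out, Msh6 ranged between -0.33 and 0.28, Apex1 between -0.75 and 0.89, Msh3 between -0.13 and 1.06, Pms2 between -0.27 and 0.14 and Neil3 between -0.85 and 0.81.

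Deviations of same-numbered libraries correlated at 0.014 in the knockdown comparison, -0.54 in mESC and MEF, -0.016 in Flag_RIP and IgG_RIP, -0.034 in HU_Flag_RIP and IgG_RIP and 0.38 in HU_Flag_RIP and Flag_RIP. With the numbers of mESC crossed, chosen after the data were seen, 8950 genes were called in mESC over MEF. The few reads of Neil3, Mutyh, Ogg1 and Msh3 in RIP limit what could be detected.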
